A study of Rattus norvegicus with 19 samples.

Results

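The genes described here encode the Rab GTPases (Rab3 genes left aside), the sorting nexins (Snx) and the vacuolar protein sorting (Vps) proteins. Members were chosen by symbol from the platform annotation: a probe set counted when its single gene symbol was Rab, Snx or Vps followed by digits, with or without a letter. This gave 111 genes with 183 probe sets, of 14217 genes and 31042 probe sets in all: 52 Rab, 25 Snx and 34 Vps genes. Of the 111 genes, 48 had several probe sets, at most 5, and 63 had 1. A gene was represented by whichever of its probe sets had the highest mean, and the probe sets of Rab8b, Snx27, Vps52 and Vps13c were set side by side.

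RNA came from the paraventricular nucleus (PVN) and the supraoptic nucleus (SON) of the hypothalamus, dissected from untreated male rats of 2 inbred strains, labelled as 12 weeks old. The spontaneously hypertensive rat (SHR) is a strain with inherited high blood pressure, and the Wistar Kyoto rat (WKY) is its normotensive comparison strain. There were 5 arrays of PVN SHR, 5 of PVN WKY, 4 of SON SHR and 5 of SON WKY, a total of 19 Affymetrix rat genome arrays, on which each probe set reports the signal of the transcripts its probes bind. Each array was taken to hold 5 pooled nuclei, so that p-values measure the spread between pooled samples, and the fifth SON SHR array was not analysed here. Values are log2 signals after every array was scaled to a common median, with a floor at a log2 signal of 1.91 (signal 3.76). Differences are SHR minus WKY with their standard error (SE), by limma, two-sided, and a probe set was called at a Benjamini-Hochberg adjusted p under 0.05 over all probe sets tested.

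Rab proteins are small GTPases that switch between a GTP-bound form on membranes and a GDP-bound form in the cytosol, and each marks a compartment and recruits the motors and tethers that move, dock and fuse vesicles there. Sorting nexins bind endosomal phosphoinositides and, with the Vps proteins of the retromer, return cargo from endosomes, while other Vps proteins form the ESCRT complexes that sort cargo for degradation and the tethers GARP, EARP, HOPS and CORVET. In magnocellular neurones of both nuclei, vasopressin and oxytocin leave the Golgi in dense-core vesicles that are released from the posterior pituitary.

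Vasopressin (Avp) and oxytocin (Oxt) had high signals in every array of both nuclei. The parvocellular markers Crh, Trh and Sst were high in the PVN and low in the SON. The mean log2 signal of 8 markers of meninges ranged from 4.88 to 5.35 in PVN SHR, 4.85 to 5.05 in PVN WKY, 8.03 to 9.35 in SON SHR and 7.64 to 8.26 in SON WKY. That of 4 markers of ependyma ranged from 8.09 to 8.31 in PVN SHR, 7.48 to 7.96 in PVN WKY, 3.89 to 4.64 in SON SHR and 4.31 to 4.70 in SON WKY. None of the markers was at the floor on every array of a group. The array that correlated least with its own group was PVN SHR 4 in the PVN (mean r = 0.947) and SON WKY 3 in the SON (mean r = 0.929).

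Most of the Rab, Snx and Vps genes differed little between the strains: of the 96 members tested in both nuclei, 93 differed by at most 0.5 in each. In the PVN 97 of the 111 genes passed the filter on low values, and 1 of them was called, Rab8b, which was lower in SHR (1.03%, against 2.36% of all 16104 probe sets tested, 1.14% higher and 1.22% lower). In the SON 99 genes passed, and 4 were called: Vps52 was higher in SHR and Rab8b, Vps13c and Rab6b were lower (4.04%, against 3.62% of 16190 probe sets, 1.29% higher and 2.33% lower). The calls of at least 2-fold were Rab8b in the PVN (background 0.627%) and Rab8b and Vps13c in the SON (background 0.766%). The strains did not overlap for 2 members in the PVN (background 4.37%) and for 10 in the SON (background 9.83%). The median difference of the members was -0.05 in the PVN and -0.06 in the SON, beside -0.04 over all probe sets tested in each nucleus. At an unadjusted p under 0.05 there were 3 higher and 5 lower members in the PVN, where the share over all probe sets was 13.5%, and 3 higher and 9 lower in the SON, where it was 19.3%. Rab8b was the 1 member called in both nuclei, where 1.15% of 15200 probe sets were. Without PVN SHR 4 the PVN still had 1 call and the median difference was 0.01, and without SON WKY 3 the SON had 6 calls and a median of -0.09. In tissue of this kind, fewer cells of a type and less RNA per cell cannot be told apart. The differences are also those of probe-set signals, which can disagree within a gene, as for Snx27 and Snx10 below. Whether the probes bind the transcripts of both strains alike was not tested.

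**Figure D1:**
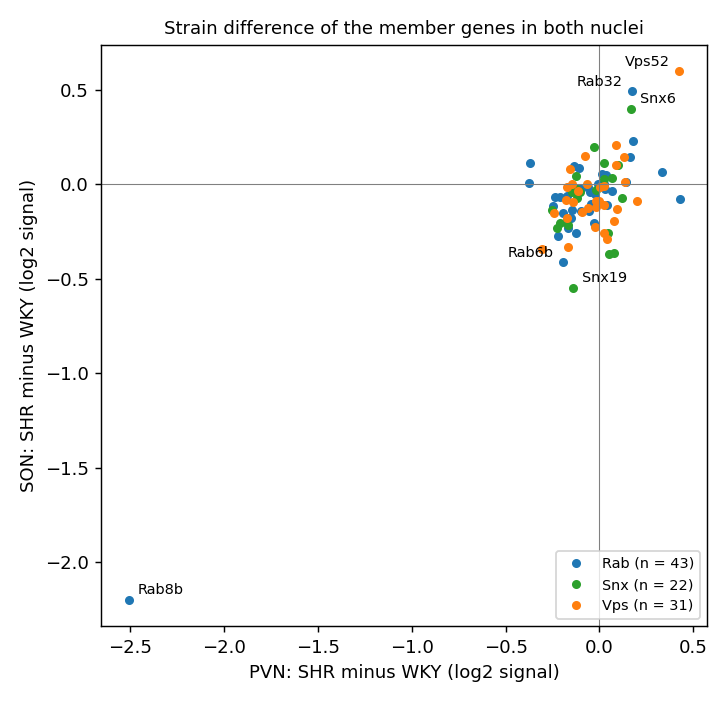
Each point is a gene by its highest-mean probe set, with the SHR minus WKY difference (log2 signal) in the PVN on the x axis and in the SON on the y axis, coloured by family. Rab8b lies apart at -2.51 and -2.20, and 93 of the 96 genes lie within 0.5 of 0 on both axes.

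Rab8b, which carries vesicles from the Golgi and recycling endosomes to the cell surface, was lower in SHR in both nuclei on both of its probe sets that passed the filter. With probe set 1391347_at, the log2 signals were 5.84, 6.01, 6.19, 4.07 and 4.71 in PVN SHR and 7.70, 7.96, 8.12, 7.77 and 7.80 in PVN WKY. The groups did not overlap, the lowest arrays being SHR 4 and 5, and the difference was -2.51 (SE 0.31, adjusted p = 1.98e-04 by limma). In the SON the same probe set had 5.63, 6.07, 5.90 and 5.28 in SHR and 7.99, 7.97, 7.79, 7.98 and 7.87 in WKY. These groups did not overlap either, with a difference of -2.20 (SE 0.15, adjusted p = 5.51e-06 by limma).

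The other probe set of Rab8b, 1370539_at, had 5.24, 5.18, 5.39, 4.79 and 5.34 in PVN SHR and 6.84, 6.90, 6.78, 6.82 and 6.88 in PVN WKY. In the SON it had 5.12, 5.11, 5.26 and 4.96 in SHR and 6.74, 6.82, 6.87, 6.62 and 6.83 in WKY. Every SHR array was below every WKY array, and the differences were -1.65 in the PVN (SE 0.12, adjusted p = 4.44e-07) and -1.66 in the SON (SE 0.10, adjusted p = 3.48e-06), both by limma. This probe set passed the filter through WKY alone, with means of 5.19 in PVN SHR and 5.11 in SON SHR, below the limits of 5.32 and 5.31, and was also called without the filter. The methods' t-test did not pass 1391347_at (adjusted p = 0.150 in the PVN and 0.0536 in the SON), whereas 1370539_at was called under every alternative in which it was tested. Without PVN SHR 4, 1391347_at differed by -2.18 in the PVN (adjusted p = 4.93e-05), and without SON WKY 3 by -2.23 in the SON (adjusted p = 1.70e-05). The probe set 1383709_at lay near the floor in all groups and was not tested. Without the filter its strains differed by -0.03 in the PVN (adjusted p = 1) and by -0.17 in the SON (adjusted p = 0.935).

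The closest relative, Rab8a, had a mean log2 signal of 7.71 ± 0.14 in PVN SHR and 7.69 ± 0.17 in PVN WKY (SD, n = 5 each). In the SON its mean was 7.89 ± 0.07 over the 4 SHR arrays and 7.89 ± 0.15 over the 5 WKY arrays (SD). Rab8a differed between strains by 0.02 in the PVN (adjusted p = 0.970) and by 0.00 in the SON (adjusted p = 0.990). Setting the nuclei against each other, the SON strain difference of Rab8b less its PVN strain difference was 0.31 for 1391347_at (SE 0.42, adjusted p = 0.928) and -0.01 for 1370539_at (SE 0.15, adjusted p = 0.997).

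**Figure D2:**
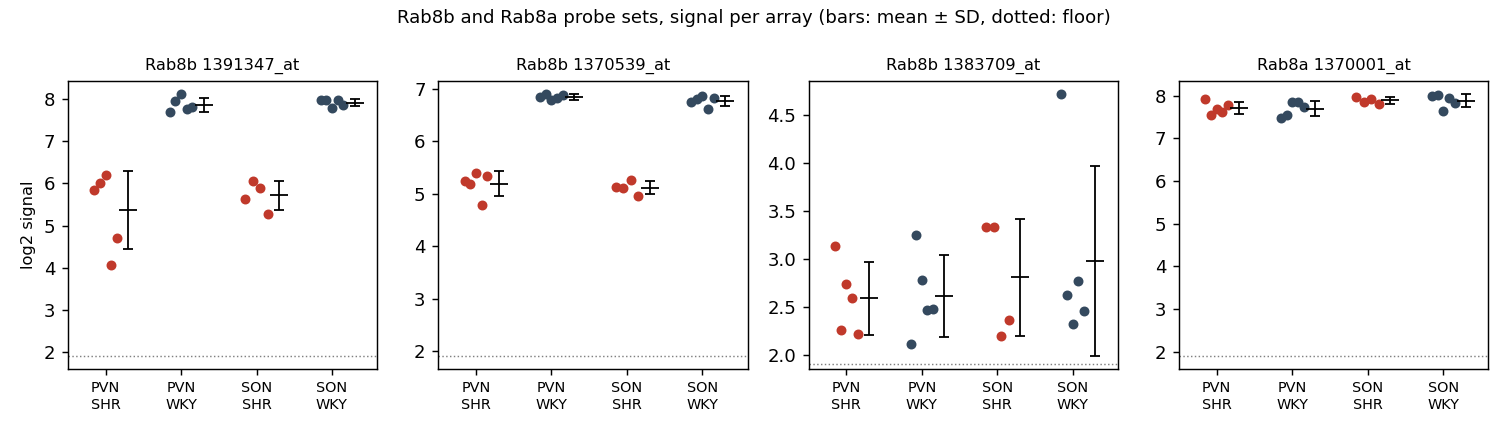
Log2 signal of the 3 probe sets of Rab8b and the probe set of Rab8a in each array (points), with group mean ± SD (bars) and the floor (dotted), for PVN SHR, PVN WKY, SON SHR and SON WKY. With 1391347_at and 1370539_at every SHR array lies below every WKY array of the same nucleus, while the groups overlap with 1383709_at and Rab8a.

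The 250 bases before the annotated start of Rab8b and of Vps13c are shown because these genes had the largest called differences among the members and lie on the same chromosome with 6 protein-coding genes between them. They come from the RefSeq annotation of the assembly GRCr8, at chr8:76417549-76417798 on the minus strand for Rab8b and chr8:77359249-77359498 on the plus strand for Vps13c, 5′ to 3′ in the direction of the gene. RefSeq lists 1 start for Rab8b and 3 for Vps13c. The reference is not a sequence of SHR or WKY. Capitals mark GGGCGG, the GC box that Sp1 binds, searched on both strands.
Rab8b: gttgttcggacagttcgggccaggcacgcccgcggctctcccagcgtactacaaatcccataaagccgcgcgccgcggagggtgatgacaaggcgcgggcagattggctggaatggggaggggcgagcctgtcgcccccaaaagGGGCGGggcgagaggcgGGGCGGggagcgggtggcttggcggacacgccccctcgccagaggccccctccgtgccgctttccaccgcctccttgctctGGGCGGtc
Vps13c: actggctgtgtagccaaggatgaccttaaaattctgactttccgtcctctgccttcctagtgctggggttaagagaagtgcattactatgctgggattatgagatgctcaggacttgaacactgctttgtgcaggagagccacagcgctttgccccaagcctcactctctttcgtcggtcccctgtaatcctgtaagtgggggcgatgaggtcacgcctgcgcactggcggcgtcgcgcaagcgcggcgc
The Rab8b promoter holds 3 GC boxes and has a GC content of 71.2%, and that of Vps13c holds 0 and has 56%. Among 97 promoters found for 91 of the members, 60.8% hold GGGCGG, against 30.5% of the 33469 promoters in the table. The member promoters are also richer in GC, with a median of 61.6%, against 51.2% for all promoters. The E-box CACGTG is in 14.4% of member promoters and 5.59% of all promoters, the cAMP response element TGACGTCA in 3.09% and 1.59%, and CCAAT in 33.0% and 34.0%.

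Vps13c, a bridge-like protein that transfers lipids between the endoplasmic reticulum and late endosomes or lysosomes, has a single probe set, 1380038_at. In the SON its log2 signals were 2.94, 4.38, 3.01 and 3.51 in SHR and 5.07, 5.49, 5.70, 5.71 and 5.04 in WKY. Every SHR array was below every WKY array, and the difference was -1.94 (SE 0.27, adjusted p = 0.00171 by limma). The probe set passed the filter through the WKY mean of 5.40, just above the limit of 5.31. The methods' t-test did not call it (adjusted p = 0.116), and with log2(value + 16) the difference was -1.09. Without SON WKY 3 it was -1.87 (adjusted p = 0.00463).

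In the PVN the WKY mean of Vps13c, 5.10, was below the limit of 5.32, and the gene was not tested. Its log2 signals were 2.64, 3.72, 3.92, 4.15 and 1.91 in PVN SHR, the last at the floor, and 5.08, 4.69, 4.66, 5.45 and 5.60 in PVN WKY. The groups did not overlap, and without the filter the difference was -1.83 (adjusted p = 0.128). Vps13a, Vps13b and Vps13d, the other genes of the family, were not called, with differences of -0.65 (adjusted p = 0.141), -0.02 (adjusted p = 0.957) and -0.29 (adjusted p = 0.291) in the SON.

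Vps52 is a subunit of the GARP and EARP complexes, which tether endosome-derived vesicles at the Golgi and at recycling endosomes. By its highest-mean probe set it was called higher in SHR in the SON alone. In the SON, probe set 1369667_at had 6.27, 6.45, 6.0 and 6.12 in SHR and 5.86, 5.75, 5.51, 5.59 and 5.34 in WKY. The groups did not overlap, and the difference was 0.60 (SE 0.13, adjusted p = 0.0258 by limma). The call was lost when SON SHR 1, SON SHR 2 or SON WKY 4 was left out (adjusted p = 0.0654, 0.0818 and 0.0616), in the methods' t-test, without the filter and with the replicate number as a block (adjusted p = 0.0504), and held without SON WKY 3 (0.57, adjusted p = 0.0408). In the PVN this probe set had 6.11, 6.14, 6.13, 6.53 and 5.86 in SHR and 6.19, 5.59, 5.48, 5.62 and 5.78 in WKY. There the groups overlapped and the difference was 0.42 (SE 0.15, adjusted p = 0.192).

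The second probe set of Vps52, 1394386_s_at, can bind several transcripts. Its difference was 0.86 in the PVN (SE 0.18, adjusted p = 0.0158), where the arrays of the strains overlapped. That call was lost without the filter (adjusted p = 0.128), with all 4 groups in the fit (adjusted p = 0.230) and in the methods' t-test (adjusted p = 0.224). In the SON it had 5.79, 5.33, 5.43 and 5.66 in SHR and 5.06, 4.36, 3.95, 2.26 and 3.59 in WKY. SHR lay above WKY throughout, and in both nuclei the probe set passed the filter through SHR alone (means of 5.51 in PVN SHR and 4.65 in PVN WKY, and of 5.55 in SON SHR and 3.84 in SON WKY). The SON values gave a difference of 1.71 (SE 0.42, adjusted p = 0.0443), a call that was lost in 13 of 18 alternatives, among them no filter (adjusted p = 0.180) and leaving out any of the 4 SHR arrays (adjusted p from 0.0861 to 0.102) or WKY 2, 3 or 5 (adjusted p = 0.0591, 0.0572 and 0.0818). The third probe set, 1369668_x_at, lay near the floor and was not tested. Without the filter it differed by -1.03 in the PVN (adjusted p = 0.153) and by -0.36 in the SON (adjusted p = 0.753). The other subunits Vps50, Vps51, Vps53 and Vps54 were not called in either nucleus. Vps53 differed by -0.31 in the PVN (adjusted p = 0.127), where the strains did not overlap, and by -0.34 in the SON (adjusted p = 0.262).

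**Figure D3:**
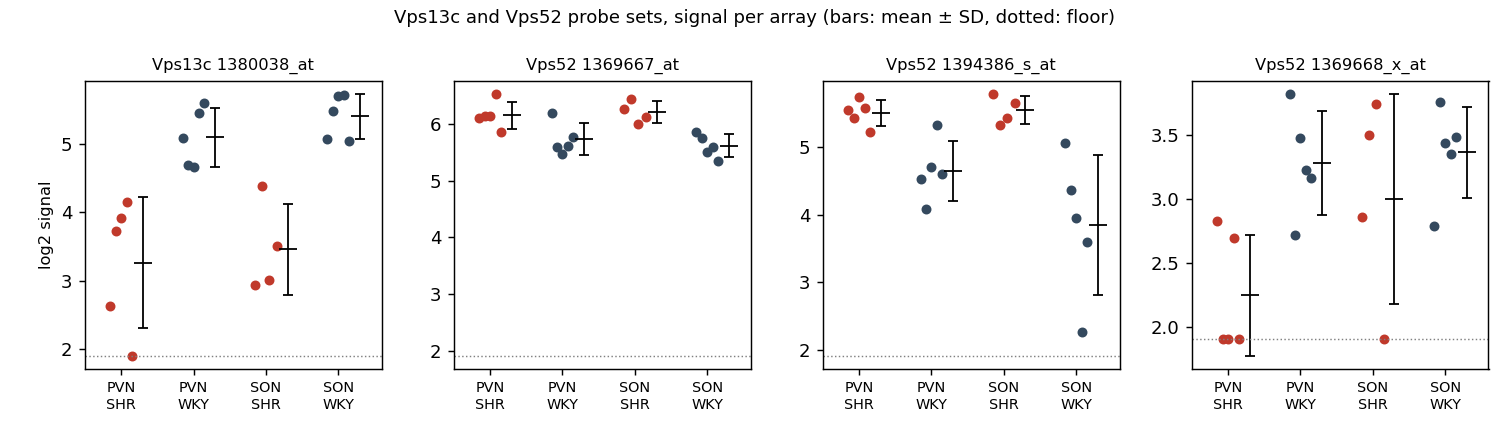
Log2 signal of the probe set of Vps13c and the 3 probe sets of Vps52 in each array (points), with group mean ± SD (bars) and the floor (dotted), by nucleus and strain. Vps13c lies lower in SHR in both nuclei with no overlap, and Vps52 lies higher in SON SHR than in SON WKY with 1369667_at and 1394386_s_at but not with 1369668_x_at.

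Snx27, the sorting nexin with a PDZ domain that links membrane receptors to the retromer for return to the cell surface, gave values that depended on the probe set. Probe set 1379804_at had 7.48, 7.58, 7.68, 7.03 and 7.13 in PVN SHR and 5.90, 6.45, 6.32, 6.45 and 6.13 in PVN WKY. In the SON it had 6.91, 7.41, 7.32 and 6.89 in SHR and 6.10, 5.82, 5.80, 5.79 and 6.04 in WKY. All SHR arrays were above all WKY arrays, with differences of 1.13 in the PVN (SE 0.15, adjusted p = 2.93e-04) and 1.23 in the SON (SE 0.13, adjusted p = 3.17e-04), both by limma. Without PVN SHR 4 and SON WKY 3 they were 1.22 (adjusted p = 1.42e-04) and 1.20 (adjusted p = 9.63e-04). In the SON the methods' t-test gave an adjusted p of 0.0564.

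The Snx27 probe set with the highest mean, 1372203_at, differed by -0.25 in the PVN (adjusted p = 0.483) and -0.14 in the SON (adjusted p = 0.471). For 1381394_at the differences were -0.02 (adjusted p = 0.969) and -0.04 (adjusted p = 0.911). For 1377526_at they were 1.04 (adjusted p = 0.198) and 0.98 (adjusted p = 0.0532), and the second passed without SON WKY 1 (1.15, adjusted p = 0.0248) and in 4 other alternatives (adjusted p from 0.0193 to 0.0476). Thus 1 of the 4 probe sets was called in each nucleus. Within an array, the log2 signal of 1379804_at minus that of 1372203_at lay between -1.85 and -1.33 in PVN SHR and between -3.24 and -2.63 in PVN WKY. In the SON it lay between -1.98 and -1.21 in SHR and between -3.18 and -2.73 in WKY, so that this quantity did not overlap between strains in either nucleus.

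A similar split was seen for Snx10, which acts at endosomes and lysosomes and was picked out after its values were seen. Probe set 1379275_at had 6.72, 6.88, 7.06, 7.19 and 7.01 in PVN SHR and 8.17, 8.0, 8.20, 8.22 and 8.07 in PVN WKY. In the SON it had 7.19, 7.11, 7.27 and 7.32 in SHR and 8.40, 8.57, 8.52, 8.51 and 8.61 in WKY. The strains did not overlap, and the differences were -1.16 (SE 0.11, adjusted p = 8.12e-06) and -1.30 (SE 0.09, adjusted p = 1.08e-05), called under all alternatives tried. The highest-mean probe set of Snx10, 1383585_s_at, differed by -0.12 (adjusted p = 0.842) and -0.08 (adjusted p = 0.771).

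**Figure D4:**
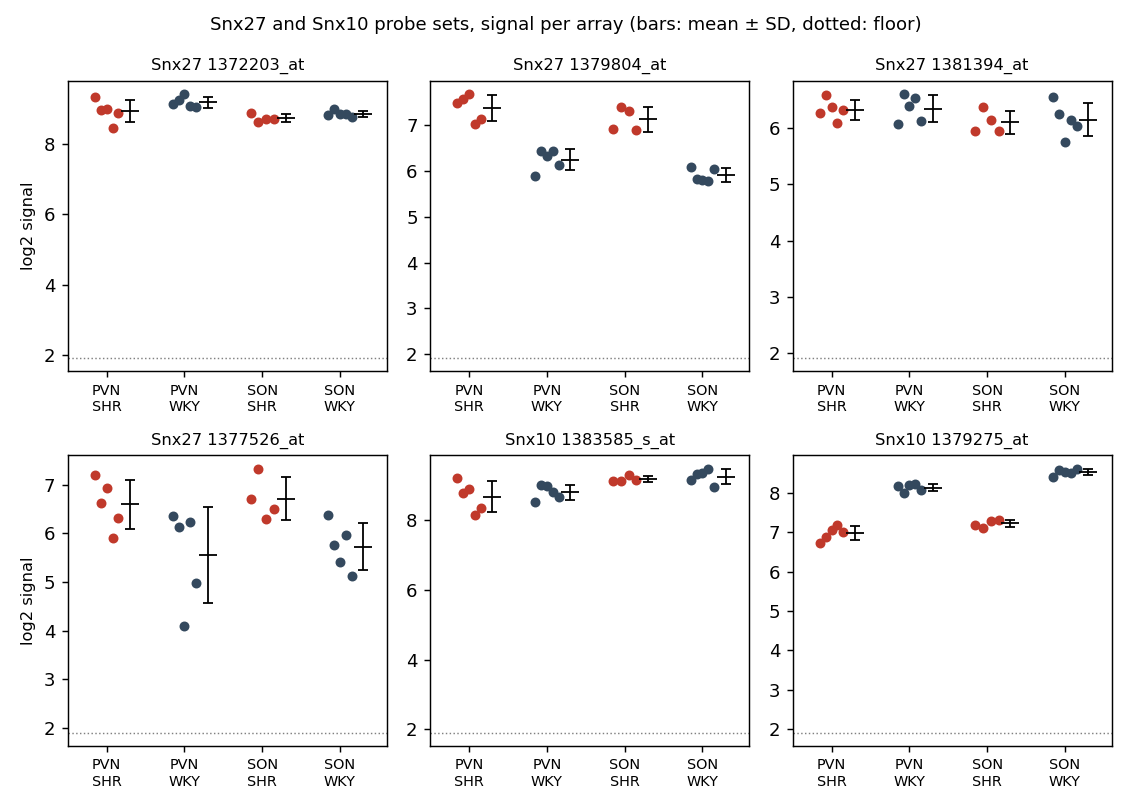
Log2 signal of the 4 probe sets of Snx27 and the 2 of Snx10 in each array (points), with group mean ± SD (bars) and the floor (dotted), by nucleus and strain. The strains are apart with Snx27 1379804_at (SHR higher) and Snx10 1379275_at (SHR lower), and overlap with 1372203_at, 1381394_at and 1383585_s_at.

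Over the members with at least 2 tested probe sets, the strain differences of a gene's probe sets spanned a median of 0.15 in the PVN (28 genes) and 0.15 in the SON (29 genes), beside 0.15 and 0.16 over all such genes on the array. A span over 1 was seen for Snx27 and Snx10 in the PVN (7.14%, against 1.26% of 2070 genes) and for Snx27, Snx10 and Vps52 in the SON (10.3%, against 1.71% of 2041 genes). Snx27 and Vps52 had been named because their probe sets were known to disagree, and Snx10 was picked after its values were seen. The shares were therefore not tested against the background and are a description. Counted by every probe set, 136 were tested in the PVN, of which 2 were higher and 3 lower in SHR. In the SON 138 were tested, of which 3 were higher and 5 lower.

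The remaining groups by role showed few or no called strain differences. Of 9 tested Rab genes of the endoplasmic reticulum and Golgi, 1 was called in the SON, Rab6b, a Golgi Rab of neurones. It had 9.62, 9.45, 9.36 and 9.38 in SHR and 9.94, 9.93, 9.69, 9.89 and 9.90 in WKY. The strains did not overlap, and the difference was -0.41 (SE 0.10, adjusted p = 0.0416). The call was lost without SON SHR 2, 3 or 4 (adjusted p = 0.0960, 0.134 and 0.0945) or SON WKY 1, 2, 4 or 5 (adjusted p = 0.0950, 0.0998, 0.0800 and 0.0702), and held without SON WKY 3 (-0.46, adjusted p = 0.0235). It was also lost with the replicate number as a block (adjusted p = 0.102), without the filter (adjusted p = 0.0691), with quantile normalization (adjusted p = 0.0698) and in the methods' t-test (adjusted p = 0.0726). A second probe set of Rab6b, 1392478_at, differed by -0.41 (adjusted p = 0.0903), and in the PVN 1388632_at differed by -0.20 (adjusted p = 0.566).

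Among 9 Rab genes of the early endosome, 5 tested of the recycling endosome, 8 tested of the late endosome and lysosome and 3 of the cilium, limma called 0 in either nucleus. At an unadjusted p under 0.05 there were 1 higher and 2 lower of them in the PVN and 1 higher and 1 lower in the SON. Rab4b, a Rab of fast recycling from early endosomes, had the smallest p of its group, with a difference of -0.20 in the SON (adjusted p = 0.276) and -0.18 in the PVN (adjusted p = 0.767).

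Of the sorting nexins, limma called 0 of 22 in the PVN and 0 of 23 in the SON by the highest-mean probe set, and at an unadjusted p under 0.05 there were 0 in the PVN and 1 higher and 2 lower in the SON. Snx19, which sits at contacts of the endoplasmic reticulum with endolysosomes, had 5.91, 5.85, 6.15 and 5.69 in SON SHR and 6.79, 6.42, 6.15, 6.55 and 6.32 in SON WKY. The difference was -0.55 (SE 0.14, adjusted p = 0.0518), and it passed in 8 alternatives (adjusted p from 0.0219 to 0.0476), among them without SON WKY 3 (-0.62, adjusted p = 0.0260). Its second probe set, 1394627_at, differed by -0.55 (adjusted p = 0.0548). Snx17, the cargo adaptor of retriever, differed by -0.37 in the SON (adjusted p = 0.105) and 0.08 in the PVN (adjusted p = 0.831).

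The 6 retromer and retriever genes Vps26a, Vps26b, Vps26c, Vps29, Vps35 and Vps35l were not called, with differences between -0.07 and 0.20 in the PVN and between -0.13 and 0.14 in the SON. The 8 tested ESCRT genes differed by -0.24 to 0.09 in the PVN and by -0.26 to 0.21 in the SON, with 0 called by limma and 0 at an unadjusted p under 0.05. The 8 genes of HOPS, CORVET and their relatives differed by -0.17 to 0.02 in the PVN and by -0.33 to 0.08 in the SON. Vps11, a core subunit of both complexes, was the lowest of these in the SON, with -0.33 (adjusted p = 0.0929), and the 1 with an unadjusted p under 0.05.

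Some members were too dim to be tested. In the PVN these were Rab17, Rab19, Rab25, Rab30, Rab37, Rab38, Rab39a, Rab43, Snx9, Snx13, Snx33, Vps13a, Vps13c and Vps25, and in the SON the list was the same without Snx33, Vps13a and Vps13c and with Rab27b. None of the 111 genes was at the floor on every array.

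In the strain comparisons the markers of other cells also moved. In the PVN 2 of 4 tested ependymal markers were higher in SHR, and in the SON 2 of 8 meningeal markers were higher in SHR, while 0 markers of neurones, astrocytes, oligodendrocytes, microglia or endothelium were called in either nucleus. Over all probe sets tested, 2.36% were called in the PVN and 3.62% in the SON. Of the tested magnocellular and parvocellular markers 0 were called, but the mean of the 3 parvocellular markers did not overlap between strains. It ranged from 9.86 to 10.06 in PVN SHR and from 10.10 to 10.51 in PVN WKY. In the SON it ranged from 5.43 to 5.70 in SHR and from 5.96 to 6.59 in WKY. No background was computed for such a mean of 3 markers. The part of these markers in the differences above was not tested.

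Whether the strain difference itself differed between the nuclei was tested for 100 members in the fit of all 4 groups, and limma called 0 (background 0.0819%). With an unadjusted p under 0.05, which 6.85% of all probe sets had, 2 were higher and 2 lower in the SON. Over the 96 members tested in both nuclei, the differences correlated with r = 0.81 across genes, and with r = 0.43 without Rab8b. They had the same sign for 66 (68.8%), beside 63.7% of 15200 probe sets. Genes are not independent replicates, and these values are a description.

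More of the members were called between the nuclei. In SHR 8 members were higher and 12 lower in the SON than in the PVN (20.0% of 100, against 29.4% of all probe sets, 13.7% higher and 15.7% lower). In WKY 9 were higher and 9 lower (18.0%, against 26.9%, 13.2% higher and 13.7% lower). In neither strain was a member called with a difference of at least 2-fold (background 5.65% in SHR and 4.91% in WKY). The comparisons of SHR and of WKY share no arrays, but share the estimate of the spread. The 13 genes called in both, each in the same direction, were 65% of those called in SHR and 72.2% of those called in WKY. The same shares over all probe sets were not computed, so this overlap has no background beside it. Of the 13 genes, Rab11a, Rab13, Snx7, Snx10, Vps26c and Vps37a were higher in the SON, and Rab11b, Rab14, Rab26, Rab28, Rab36, Rab40b and Vps37b were lower.

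Rab13, which directs traffic to cell junctions and the leading edge, had the largest rise among the called members. Its log2 signals were 6.86, 6.83, 6.88 and 6.61 in SON SHR and 5.94, 6.27, 6.11, 5.99 and 6.06 in PVN SHR. They were 6.81, 6.81, 6.75, 6.57 and 6.78 in SON WKY and 5.96, 6.23, 6.13, 5.99 and 6.0 in PVN WKY. The nuclei did not overlap in either strain, and SON minus PVN was 0.72 in SHR (SE 0.10, adjusted p = 8.83e-06) and 0.68 in WKY (SE 0.09, adjusted p = 9.65e-06).

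Rab40b, a Rab with a SOCS box that joins a ubiquitin ligase, had the largest fall among the called members. It had 5.92, 5.88, 6.15 and 6.04 in SON SHR and 6.86, 6.85, 6.89, 6.45 and 6.63 in PVN SHR. In WKY it had 6.13, 6.15, 6.07, 6.06 and 5.62 in the SON and 6.74, 6.73, 6.78, 6.73 and 6.59 in the PVN. The nuclei did not overlap, and SON minus PVN was -0.74 in SHR (SE 0.12, adjusted p = 6.93e-05) and -0.71 in WKY (SE 0.11, adjusted p = 6.08e-05). Its relative Rab40c was lower in the SON of SHR, with -0.49 (SE 0.17, adjusted p = 0.0328), a call that was lost in 7 alternatives, among them leaving out SON SHR 4 (-0.32, adjusted p = 0.155).

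Of the 5 tested Rabs of the recycling endosome, 1 was called higher and 2 lower in the SON in each strain, all by the highest-mean probe set. That is 60% of only 5 genes, against 29.4% of all probe sets in SHR and 26.9% in WKY. Rab11a, which drives slow recycling to the cell surface, had 9.40, 9.52, 9.45 and 9.25 in SON SHR and 9.31, 8.90, 8.88, 8.66 and 8.93 in PVN SHR, and was higher in the SON by 0.47 in SHR (adjusted p = 0.00432) and 0.43 in WKY (adjusted p = 0.00625). Its close relative Rab11b had 8.92, 8.90, 8.77 and 8.74 in SON SHR and 9.85, 9.24, 9.59, 9.05 and 9.23 in PVN SHR, and was lower in the SON, with -0.56 in SHR (adjusted p = 0.00874) and -0.53 in WKY (adjusted p = 0.00921). Rab14, which works between the Golgi and endosomes, was lower too, with -0.48 in SHR (adjusted p = 0.00904) and -0.63 in WKY (adjusted p = 8.16e-04). The other probe sets of these genes were not called. Rab11a 1374069_at differed by 0.04 in SHR (adjusted p = 0.844) and -0.01 in WKY (adjusted p = 0.963), and Rab11b 1398825_at by -0.02 (adjusted p = 0.936) and -0.25 (adjusted p = 0.123). The 3 other tested probe sets of Rab14 differed by -0.24 to -0.18 in SHR and by -0.19 to -0.01 in WKY. No test of Rab11a against Rab11b was run.

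Other Rab genes that were lower in the SON were Rab26, of secretory and synaptic vesicles, with -0.66 in SHR (adjusted p = 8.44e-04) and -0.48 in WKY (adjusted p = 0.00706), and Rab36, of late endosomes and lysosomes, with -0.56 (adjusted p = 5.63e-04) and -0.57 (adjusted p = 2.67e-04). Rab23, which acts at the primary cilium in Hedgehog signalling, differed by -0.01 in SHR (adjusted p = 0.968) and was lower in WKY, with -0.49 (adjusted p = 0.00900). The unadjusted p of the strain by nucleus interaction for Rab23 was 0.0220, with an adjusted p of 0.640.

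Of the sorting nexins, Snx7, a BAR domain protein of recycling and autophagy, had 6.73, 6.69, 6.87 and 6.90 in SON SHR and 6.66, 5.74, 6.43, 5.74 and 6.03 in PVN SHR. It was higher in the SON by 0.68 in SHR (SE 0.15, adjusted p = 0.00221) and 0.58 in WKY (SE 0.14, adjusted p = 0.00542), with no overlap in either strain. Snx10 was higher by 0.50 in SHR (adjusted p = 0.0347) and 0.45 in WKY (adjusted p = 0.0447) with 1383585_s_at, calls that were lost without the filter (adjusted p = 0.0744 and 0.0895). The call in SHR was also lost without any single SON SHR array (adjusted p from 0.0550 to 0.0918), and that in WKY without PVN WKY 1 (adjusted p = 0.116), among others.

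Of the Vps genes, Vps26c, a subunit of retriever, was higher in the SON by 0.50 in SHR (adjusted p = 0.0134) and 0.48 in WKY (adjusted p = 0.0120). Vps37a of ESCRT-I was higher by 0.57 in SHR (adjusted p = 0.00238) and 0.34 in WKY (adjusted p = 0.0436), while its relative Vps37d differed by -0.42 in SHR (adjusted p = 0.0793) and was lower in WKY, with -0.51 (adjusted p = 0.0267). Vps45, which controls SNAREs of endosomes, differed by 0.16 in SHR (adjusted p = 0.237) and was higher by 0.43 in WKY (adjusted p = 0.00151). Rab5c, of early endosomes, was lower in SHR, with -0.39 (adjusted p = 0.0211), and differed by -0.26 in WKY (adjusted p = 0.101). A call in a single strain does not show a difference between strains, as limma called 0 of the 100 members in the interaction.

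**Figure D5:**
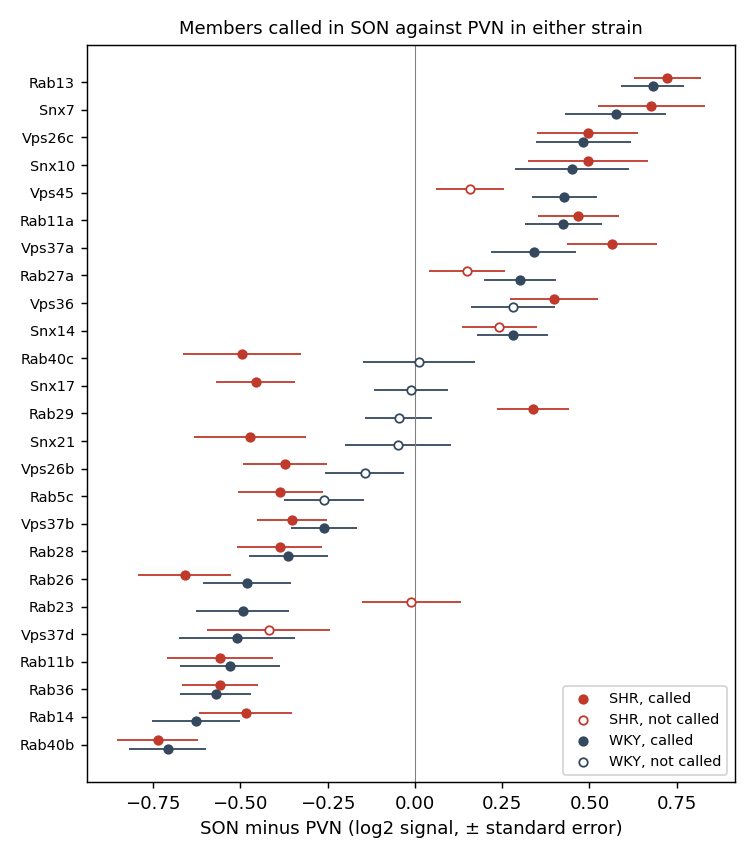
SON minus PVN difference (log2 signal, ± standard error) of the 25 members called in either strain, with SHR in red above WKY in blue, filled where called and open where not. Rab13 lies highest and Rab40b lowest, and the 13 genes called in both strains lie on the same side of 0 in each.

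Between the nuclei the markers of other cells differed as well. All 8 meningeal markers were higher and all 4 ependymal markers lower in the SON in both strains, and 3 of 6 tested astrocyte and 3 of 6 endothelial markers were higher. Of 7 oligodendrocyte markers, 5 were higher in the SON in SHR, and 1 was lower in WKY. Of 6 microglial markers 1 was lower in SHR and 2 in WKY, and of 8 neuronal markers 1 was higher and 2 were lower in each strain. Over all probe sets, 29.4% were called between the nuclei in SHR and 26.9% in WKY. The part of the markers in the differences between nuclei was not tested.

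The regulators and partners of these proteins were listed as 190 genes, of which 171 were on the array and 150 were tested in each nucleus. In the PVN 1 was called between strains, Sytl2, an effector of Rab27 that docks secretory granules, which had a mean of 6.09 ± 0.16 in SHR and 6.55 ± 0.11 in WKY (SD, n = 5 each) and differed by -0.45 (SE 0.11, adjusted p = 0.0350). In the SON 2 were higher in SHR and 1 was lower, which is 2% of 150, against 3.62% of all probe sets, and the call in the PVN is 0.667%, against 2.36%. Without SON WKY 3 there were 5 calls in the SON. Sorcs1, a sorting receptor of the Vps10 family, averaged 5.55 ± 0.12 in the 4 SHR arrays and 6.74 ± 0.18 in the 5 WKY arrays (SD) and differed by -1.19 (SE 0.11, adjusted p = 1.01e-04). Chmp1b of ESCRT-III was higher by 0.71 (adjusted p = 0.00441) and Pik3c3, the lipid kinase of early endosomes, by 0.49 (adjusted p = 0.0415). Limma called 0 of 151 in the interaction (1 without PVN SHR 4), against 0.0819% of all probe sets. Unadjusted p values under 0.05 were reached there by 1 with a higher and 9 with a lower difference in the SON. Among all probe sets, 6.85% had such a value.

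Between the nuclei, 15 of 151 of these partners were higher and 16 lower in the SON in SHR, and 18 were higher and 8 lower in WKY. These are 20.5% and 17.2%, below the 29.4% and 26.9% of all probe sets. Of 18 endosomal and Golgi SNAREs tested, 6 were higher in SHR and 7 in WKY, and 0 were lower in either strain, where 13.7% and 13.2% of all probe sets were higher. Ykt6 was higher by 0.73 in SHR (adjusted p = 1.75e-04) and 0.95 in WKY (adjusted p = 4.96e-06), and Vamp8 by 1.03 (adjusted p = 0.00110) and 0.81 (adjusted p = 0.00512). Among 16 WASH and retromer partners, 3 were higher and 5 lower in SHR, and 5 were higher and 4 lower in WKY. Of all probe sets, 13.7% were higher and 15.7% lower in SHR, and 13.2% and 13.7% in WKY. The WASH subunits Washc3 and Washc4 were higher in both strains, by 0.47 and 0.43 in SHR (adjusted p = 0.00353 and 0.0118) and by 0.32 and 0.49 in WKY (adjusted p = 0.0301 and 0.00330).

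The WASH and retromer partners called lower in the SON were all sorting receptors of the Vps10 family, which are cargo of the retromer. Of these receptors 4 were lower in both strains, and Sort1 differed by -0.42 in SHR (adjusted p = 0.0164) and -0.28 in WKY (adjusted p = 0.0843). The share of all probe sets lower in both strains was not computed. Sorcs1 differed by -2.05 in SHR (adjusted p = 1.28e-09) and -1.06 in WKY (adjusted p = 7.74e-06), and Sorcs3 by -1.60 (adjusted p = 0.0140) and -1.95 (adjusted p = 0.00254). Sorcs3 passed the filter through the PVN alone, with means of 4.82 in SON SHR, 6.43 in PVN SHR, 4.41 in SON WKY and 6.37 in PVN WKY. Sorcs2 differed by -0.52 in SHR (adjusted p = 0.00102) and -0.41 in WKY (adjusted p = 0.00505), and Sorl1 by -0.59 (adjusted p = 0.00335) and -0.61 (adjusted p = 0.00157). Ankrd27, an exchange factor for Rab21, was higher by 0.43 in SHR (adjusted p = 0.0152) and 0.67 in WKY (adjusted p = 2.67e-04).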

How the data were processed

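The deposited values are intensities, MAS5 signals on a linear scale, made by the authors from RNA that had been amplified linearly and labelled with biotin. The GeneSpring normalisation and the present calls of the methods are not in them, and the genome build is not given in the sources used here. Array medians ranged from 35.9 to 46.5, so arrays were scaled to a common median. Values below the 10th percentile were raised to it as a floor (8.33% to 10.6% of probe sets per array), which understates differences of dim probe sets, and log2 was taken. After 57 control probe sets were left out, a probe set was tested where a group mean was at least the median over the means of all probe sets (log2 5.32 in the PVN, 5.31 in the SON and 5.32 over all arrays).

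A single symbol was known for 20826 probe sets, several for 436 and none for 9780, and 20758 were matched to the gene annotation through Entrez numbers. The suffixes _x_at, _s_at and _a_at mark probe sets that may hybridise to several transcripts. Fits used limma 3.58.1 in R 4.3.3 (lmFit, eBayes) and were tested on simulated data. Strains were compared within each nucleus, and all 4 groups gave the interaction and SON against PVN. Named were all probe sets of Rab8b, Snx27, Vps52 and Vps13c, members called between strains, the 6 largest called rises and falls between nuclei per strain, and the member with the smallest p of each role group with none named. Rab5c, Vps13a, Vps13b, Vps13d, Vps53, Rab8a and Snx10 1379275_at were added after values were seen. Members and lists were chosen with earlier results of these data known. The number of arrays limits the precision. Figures used matplotlib 3.10.9 in Python 3.11.15.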

Additional observations from a re-analysis of the deposited data

Results flagged for a closer look

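Of 120 groups of arrays of the named probe sets, 5 (4.17%) held an array far from the rest by Dixon's criterion, and chance flags about 1 in 20. Rab13 had a log2 signal of 6.61 in SON SHR array 4, where the others had 6.83 to 6.88, and 6.57 in SON WKY array 4, where the others had 6.75 to 6.81. Rab40b had 5.62 in SON WKY array 5, against 6.06 to 6.15 in the others, and 6.59 in PVN WKY array 5, against 6.73 to 6.78. Rab6b had 9.69 in SON WKY array 3, against 9.89 to 9.94. The single arrays left both Rab13 and Rab40b with no overlap between the nuclei.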

How the results depend on the processing

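Member calls between strains in the PVN (1) were 2 with the values as deposited, with no filter and with all 4 groups in the fit, 3 with array weights and 5 with every probe set counted, and 1 to 2 with an array left out (2 without PVN SHR 1 or 5). In the SON (4) they were 2 with no filter, 10 with array weights, 0 in the methods' t-test and 8 with every probe set counted, and 2 to 6 with an array left out (2 without SON SHR 2 or SON WKY 4). Between nuclei, quantile normalization gave 33 in SHR, against 20, and 28 in WKY, against 18, and leaving out an array gave 14 to 24 in SHR and 12 to 21 in WKY. The interaction stayed at 0 in all fits. The methods' t-test stands for the Welch test alone, on the values and filter used here, without the study's present calls and 2-fold limit.

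For the partners in the PVN (1), quantile normalization and array weights gave 4, the values as deposited 6, and no filter, the stricter filter, all 4 groups and the methods' t-test 0, with 0 to 1 when an array was left out. In the SON (3), the values as deposited, log2(value + 16) and all 4 groups gave 6, the stricter filter 8, the intensity trend 9 and array weights 18, with 2 to 5 when an array was left out (5 without SON WKY 3). In the interaction (0), quantile normalization, the values as deposited, a floor at 16, the stricter filter, array weights and the trend gave 1, with 0 to 1 when an array was left out (1 without PVN SHR 4). Between nuclei in SHR (31), quantile normalization and the values as deposited gave 50 and only the 2 groups 20, with 25 to 40 when an array was left out. In WKY (26), quantile normalization gave 47 and array weights 43, with 21 to 34 when an array was left out.

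Replicate numbers were not taken as pairs, since arrays of the same number correlated from -0.226 to 0.0799 between strains in the PVN, from -0.0144 to 0.104 in the SON, from 0.0351 to 0.174 between nuclei in SHR and from -0.00909 to -0.00113 in WKY. With the replicate number as a block, member calls were 1 in the PVN, 2 in the SON, 0 in the interaction, 20 in SHR and 16 in WKY, and the partners had 0, 2, 0, 32 and 28. The block lost the calls of Vps52 1369667_at (adjusted p = 0.0504) and 1394386_s_at (0.0795) and Rab6b (0.102) in the SON, and of Snx10 1383585_s_at between nuclei in SHR (0.0626).

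The named probe sets gave 1184 values on the same side of the threshold, 17 newly past it, 72 no longer past it and 12 of turned sign, all 12 of probe sets that were not called. Snx27 1381394_at (-0.02 and -0.04) was 0.0157 in the PVN and 0.0191 in the SON with the values as deposited and 0.0520 in the PVN with array weights, and with an array left out it ranged from -0.0886 to 0.0421 in the PVN (above 0 without PVN SHR 4 or PVN WKY 2 or 4) and from -0.142 to 0.0591 in the SON (above 0 without SON SHR 1 or 4 or SON WKY 1). Rab4b in the PVN ranged from -0.277 to 0.0059 (above 0 without PVN SHR 5) and Snx10 1383585_s_at from -0.256 to 0.0109 (above 0 without PVN SHR 4), and Snx10 in the SON was 0.0244 with quantile normalization. Between nuclei, Snx10 1383585_s_at lost its call without each single SON SHR array or PVN SHR 4 or 5 in SHR (adjusted p from 0.0550 to 0.0919), and without most single arrays in WKY (up to 0.116). Rab40c in SHR lost it without PVN SHR 1, 2 or 3 or SON SHR 3 or 4 (up to 0.155), and Vps37d in WKY without PVN WKY 2, 3 or 4 or SON WKY 2 or 5 (up to 0.0804). The causes were not tested. Signals near the floor limit Vps13c and the dim probe sets of Rab8b and Vps52.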

Other observations

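Of the 10 protein-coding genes on each side of Rab8b in the annotation, 8 were tested. In the PVN 0 were called by limma, with differences from -0.16 to 0.37. In the SON Vps13c was lower, and Tpm1, a tropomyosin, was higher by 1.10 (adjusted p = 0.0139). Snx1, the retromer-associated sorting nexin 10 genes from Rab8b, differed by -0.15 in the PVN (adjusted p = 0.704) and -0.02 in the SON (adjusted p = 0.937). Around Vps52, which lies on chromosome 20 beside class I genes of the major histocompatibility complex, 12 neighbours were tested, of which 0 were called in the PVN and 1 in the SON, RT1-A3, with 0.72 (adjusted p = 0.0214). Of the 12 tested neighbours of Snx27 on chromosome 2, 0 were called in either nucleus, with differences between -0.38 and 0.26 in the PVN and between -0.57 and 0.72 in the SON.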
